A study of Mus musculus with 9 samples.

Results

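The Toll-like receptors described here were Tlr1, Tlr2, Tlr3, Tlr4, Tlr5, Tlr6, Tlr7, Tlr8, Tlr9 and Tlr13, read by every probe that carried one of these names on the array and was not a control. The 10 genes had 14 of the 55681 probes, with 2 probes for Tlr4, 3 for Tlr7, 2 for Tlr8 and 1 for each other gene. Neutrophils were sorted as Gr-1bright cells from papillomas (3 arrays), from the skin around papillomas (papilloma skin, 2 arrays), from tumors (2 arrays) and from the skin around tumors (tumor skin, 2 arrays). Every group, both skin groups included, came from FVB/N mice that had received the carcinogen DMBA at 6 and at 13 weeks of age and repeated applications of the tumor promoter PMA from week 1 to week 18 to 20, so that no untreated skin was measured. RNA on each array was pooled from several mice, and p-values therefore measure the spread between pools that is left in the deposited values. Lesions were digested with collagenase IV, dispase II and DNase I and skin with collagenase IV alone, and the digestion cannot be told apart from the difference between lesion and skin. In such bulk samples, fewer cells of a type and less RNA per cell cannot be told apart either.

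Toll-like receptors are membrane proteins that recognize microbial molecules and molecules released by damaged cells. Tlr1, Tlr2, Tlr4, Tlr5 and Tlr6 act at the cell surface, where Tlr2 pairs with Tlr1 or Tlr6 to bind lipopeptides, Tlr4 binds lipopolysaccharide together with Ly96, and Tlr5 binds flagellin. Tlr3, Tlr7, Tlr8, Tlr9 and Tlr13 read nucleic acids inside endosomes and depend on the chaperone Unc93b1 to get there. All but Tlr3 signal through the adaptor Myd88, and in neutrophils this signaling is known to raise cytokine release and to prolong survival.

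Levels were taken from the table of log2 values that the authors deposited, with 1 column per array. Signal range differed between the arrays. Spike-in signals rose with the amount added at a log slope of 0.678 for papilloma skin 1, of 0.876 for tumor skin 1 and of 0.894 for tumor 1, against 1.04 to 1.06 for the other 6. On these 3 arrays, 90.7 to 95% of the probes were well above background, against 44.2 to 64.2% on the other 6. The table's column for papilloma skin 1 had a Spearman's rho of 0.587 across probes with its own scanner file and of 0.923 with that of tumor 2, and the column for tumor 1 had 0.825 with its own file and 0.946 with that of tumor 2. For papilloma 2 and papilloma 3, which are arrays of the same group, the nearest scanner file was that of the other array (0.981 and 0.958). After quantile normalization and ComBat for slide, rho with the own file was 0.729 for papilloma skin 1 and 0.903 for tumor 1, and the nearest corrected file was then that of papilloma 3 (0.929 and 0.94). For the members that passed a threshold and for the gene lists, values without the columns of papilloma skin 1 and tumor 1 are given beside those with them. They are not given for Unc93b1, Myd88, Tlr11 and Tlr12. Leaving these columns out leaves 1 array in papilloma skin and 1 in tumor. Ly6g, which defines neutrophils, was well above background on all 9 arrays, at log2 levels of 9.30 to 12.65, and was lower in tumor than in tumor skin by a log2 fold change of -2.09 (limma, Benjamini-Hochberg adjusted p = 0.00894).

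Tlr8 was the only member called in any comparison of the value table (an adjusted p of 0.05 or less with at least a 2-fold difference), and its probes and promoter are printed here because that result rests on them. Its probes lay on the minus strand at chrX:163683356-163683415 (probe 1) and chrX:163680626-163680685 (probe 2) in mm9; the first was designed to a RefSeq transcript and the second to an Ensembl one. Tlr4 probe 1 (chr4:66590077-66590136, plus strand) and Tlr4 probe 2 (chr4:66503470-66503529, plus strand) are shown beside them because the first of them was seldom above background and the second passed a test, and Tlr6 (chr5:65344365-65344424, minus strand) because it was higher in lesions. The first 30 of the 60 bases of each probe were as follows, in the order of the probe's own 5′ end, without capitals since no part was singled out.
Tlr8 probe 1: acagttttactgctggaagacaaccagtta
Tlr8 probe 2: tgatgggaagtcacgactctgccatcataa
Tlr4 probe 1: gaaattgggtactcatgtttacatgtggac
Tlr4 probe 2: ttgagaacattttggggaggaagaaaggtc
Tlr6: ttatgaagttagccttagtcaatgaggatg

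No pair of the 14 probes shared a run of more than 10 bases, and that run was between Tlr7 probe 2 and Tlr7 probe 3. Both probes of Tlr8 had a GC content of 43.3%. Of the 10 members, 8 had a promoter in the RefSeq table of GRCm38.p6, with 10 starts in all. The 250 bases before the start of Tlr8 (chrX:167264330-167264579, minus strand) and before the first of the Tlr6 starts (chr5:64959167-64959416, minus strand) are shown because these genes moved in opposite directions. Capitals mark matches on either strand to GAGGAA (PU.1), TGANTCA (AP-1), TTGCNNAA (C/EBP) or GAAANNGAAA (the interferon-stimulated response element, ISRE).
Tlr8 promoter: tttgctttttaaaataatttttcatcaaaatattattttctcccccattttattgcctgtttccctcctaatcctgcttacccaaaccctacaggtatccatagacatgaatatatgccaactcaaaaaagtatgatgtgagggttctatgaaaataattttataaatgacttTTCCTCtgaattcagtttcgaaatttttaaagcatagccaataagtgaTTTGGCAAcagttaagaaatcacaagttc
Tlr6 promoter: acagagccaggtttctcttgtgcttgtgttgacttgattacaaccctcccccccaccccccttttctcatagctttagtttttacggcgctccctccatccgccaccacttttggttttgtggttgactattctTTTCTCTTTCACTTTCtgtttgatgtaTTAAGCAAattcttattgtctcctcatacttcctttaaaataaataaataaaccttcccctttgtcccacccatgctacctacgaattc

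The Tlr8 promoter held a PU.1 match ending 72 bases and a C/EBP match ending 22 bases before the start, both on the opposite strand. The Tlr6 promoter held 2 overlapping ISRE matches, together spanning 116 to 101 bases before the start on the opposite strand, and a C/EBP match ending 82 bases before it. The second start of Tlr6 had no match. Over the same 250 bases of all 32851 starts in the table, 23.3% held a PU.1 match, 6.75% an AP-1 match, 9.56% a C/EBP match and 2.98% an ISRE match. These matches describe letters in the window, and binding was not measured.

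Of the 14 probes, 10 were well above background on all 9 arrays, and these covered Tlr1, Tlr2, Tlr4, Tlr6, Tlr7, Tlr8, Tlr9 and Tlr13. Tlr3 was well above background on no array. Tlr5 was so on 7 arrays, and the remaining probes, Tlr4 probe 1 and Tlr7 probe 2, were so on the 3 arrays with a compressed signal range and on no other. The lowest mean log2 level allowed for a call, 6, was reached by 11 probes.

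**Figure D1:**
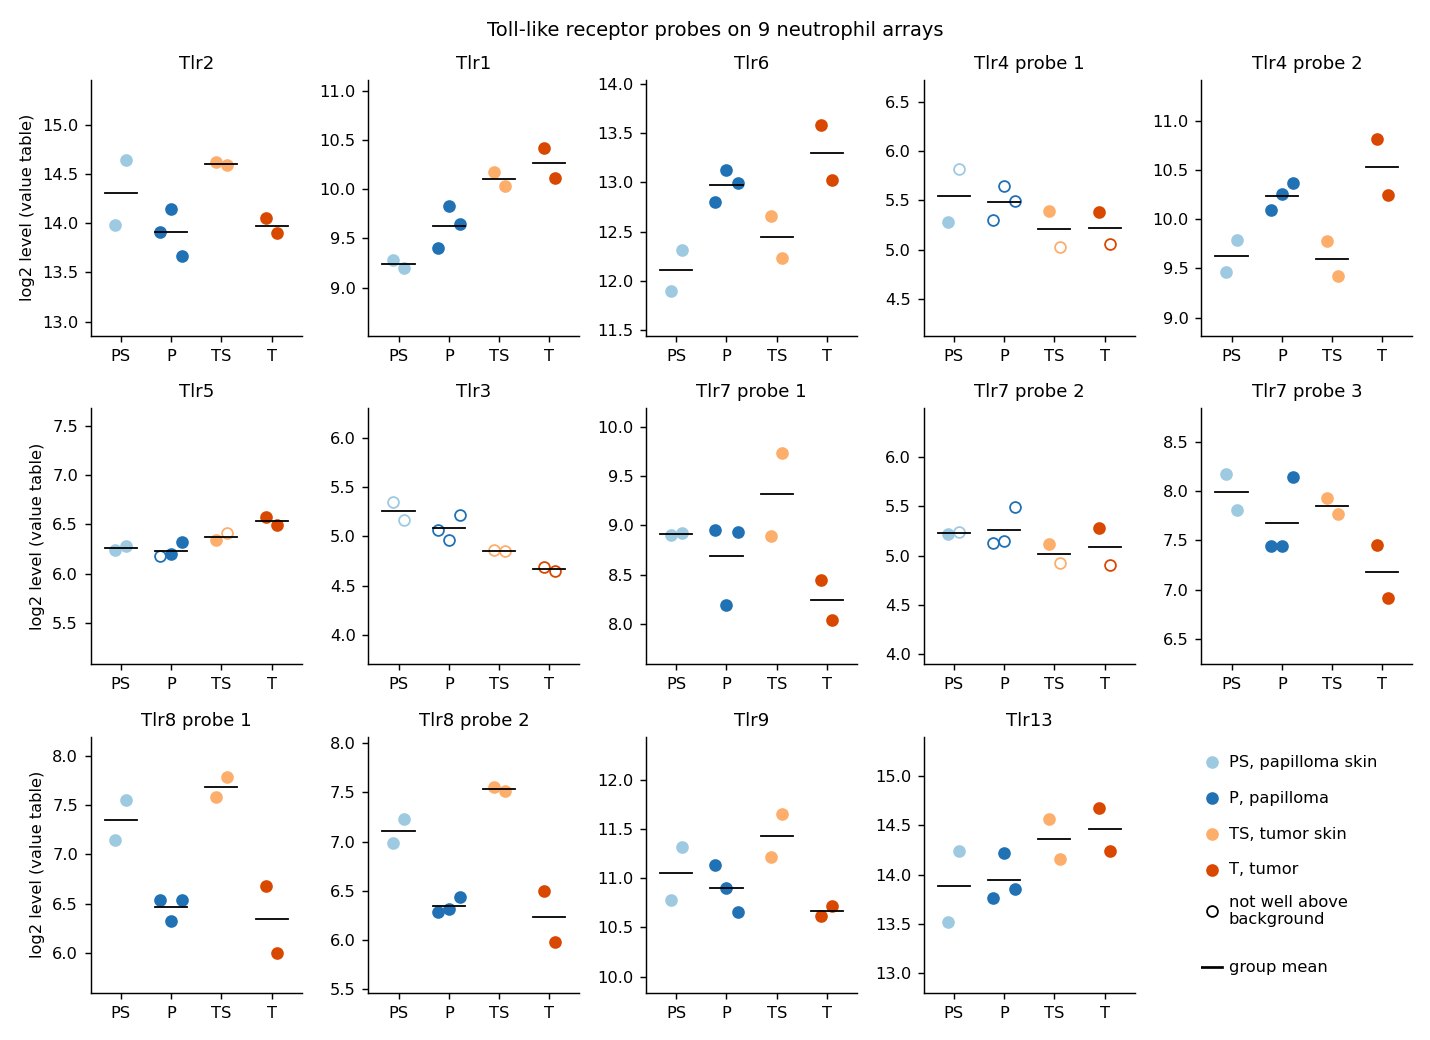
Log2 level from the value table (y axis, the same span in each panel) of each of the 14 probes in papilloma skin (PS), papilloma (P), tumor skin (TS) and tumor (T). Points are arrays, open where the probe was not well above background, and lines are group means; both probes of Tlr8 lay lower on every lesion array (5.98 to 6.68) than on every skin array (6.99 to 7.79).

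Among the surface receptors, the Tlr2 subfamily was measured with bright probes. Tlr2, the shared partner of the lipopeptide receptors, had log2 levels of 13.98 and 14.64 in papilloma skin, 13.91, 14.14 and 13.67 in papilloma, 14.62 and 14.59 in tumor skin, and 14.05 and 13.90 in tumor (chr3:83640344-83640403, minus strand, printed on 10 spots). Both tumor arrays lay below both tumor skin arrays, whereas papilloma overlapped papilloma skin. The log2 fold change in tumor versus tumor skin was -0.63 (SE 0.238, 95% interval -1.17 to -0.08, limma adjusted p = 0.136), and in papilloma versus papilloma skin it was -0.40 (SE 0.217, adjusted p = 0.347).

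Tlr1, which forms the receptor for triacylated lipopeptides with Tlr2, had log2 levels of 9.28 and 9.20 in papilloma skin, 9.40, 9.83 and 9.65 in papilloma, 10.17 and 10.03 in tumor skin, and 10.42 and 10.11 in tumor (chr5:65316115-65316174, minus strand). In the value table every array of the tumor stage was above every array of the papilloma stage. In the quantile normalized scanner files they overlapped, with papilloma 3 at 10.20 above tumor 1 at 9.44, tumor 2 at 9.92 and tumor skin 1 at 9.40. The difference between the skin groups was 0.86 (SE 0.183, limma adjusted p = 0.0687) and that between tumor and papilloma was 0.64 (SE 0.167, adjusted p = 0.162), neither of which passed the threshold. The lesion differences were smaller, 0.39 (95% interval 0.00 to 0.77, adjusted p = 0.235) in papilloma versus papilloma skin and 0.17 (95% interval -0.25 to 0.58, adjusted p = 0.61) in tumor versus tumor skin.

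Tlr6, the other partner of Tlr2, which binds diacylated lipopeptides, had log2 levels of 11.90 and 12.31 in papilloma skin, 12.80, 13.12 and 12.99 in papilloma, 12.66 and 12.23 in tumor skin, and 13.58 and 13.02 in tumor. All 5 lesion arrays were above all 4 skin arrays, with 12.80 as the lowest lesion value and 12.66 as the highest skin value. Over both stages the level was higher in lesions by 0.86 on the log2 scale, a 1.82-fold difference (SE 0.169, 95% interval 0.47 to 1.25, limma adjusted p = 0.0123). The stages alone gave 0.87 (SE 0.228, adjusted p = 0.0658) for papilloma and 0.86 (SE 0.25, adjusted p = 0.0672) for tumor, and the difference between these effects was -0.01 (95% interval -0.78 to 0.77). Without the columns of papilloma skin 1 and tumor 1 the difference between lesions and skin was 0.62 (adjusted p = 0.0745).

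Tlr4, the lipopolysaccharide receptor, was read by a pair of probes, of which one was above background on every array. Probe 2 had log2 levels of 9.46 and 9.79 in papilloma skin, 10.09, 10.26 and 10.37 in papilloma, 9.78 and 9.42 in tumor skin, and 10.81 and 10.25 in tumor. On this probe too every lesion array lay above every skin array. Tlr4 probe 2 was higher in tumor than in tumor skin by 0.93 (SE 0.232, 95% interval 0.40 to 1.47, limma adjusted p = 0.0427) and in lesions than in skin by 0.78 (SE 0.157, adjusted p = 0.014), both short of the log2 fold change of 1 that a call required. In papilloma versus papilloma skin its difference of 0.62 did not pass (SE 0.212, adjusted p = 0.14). Without the columns of papilloma skin 1 and tumor 1 the difference in tumor versus tumor skin was 0.65 (adjusted p = 0.148) and in lesions versus skin 0.55 (adjusted p = 0.0765). With single arrays left out the difference in tumor versus tumor skin was 0.65 to 1.21 (adjusted p = 0.0495 to 0.168), past the threshold without either papilloma skin array and not without any of the other 7. Tlr4 probe 1, annotated to another transcript, lay between 5.03 and 5.82 on all arrays, and its groups overlapped in each comparison. Since it was well above background on none of the 3 papilloma arrays and on 1 array of each other group, no fold change is given for it.

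Tlr5, the flagellin receptor, stood just above the level limit, between 6.18 and 6.58 on the 9 arrays (chr1:184906031-184906090, plus strand). Both tumor arrays, at 6.58 and 6.49, were above all others, and the difference from papilloma was 0.31 (SE 0.121, limma adjusted p = 0.302). Tumor skin 2 and papilloma 1 gave no signal well above background for this probe.

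Of the endosomal receptors, Tlr8 fell in lesions. Its mean log2 level on probe 1 was 7.35 ± 0.29 (SD, n = 2) in papilloma skin, 6.47 ± 0.13 (n = 3) in papilloma, 7.69 ± 0.15 (n = 2) in tumor skin and 6.34 ± 0.48 (n = 2) in tumor. This sensor of RNA breakdown products had log2 levels on probe 1 of 7.15 and 7.55 in papilloma skin, 6.54, 6.32 and 6.54 in papilloma, 7.58 and 7.79 in tumor skin, and 6.68 and 6.00 in tumor. On Tlr8 probe 2 they were 6.99 and 7.23 in papilloma skin, 6.29, 6.32 and 6.44 in papilloma, 7.55 and 7.51 in tumor skin, and 6.50 and 5.98 in tumor. On both probes the lesion arrays lay below all the skin arrays and no value of a lesion overlapped one of skin.

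Tlr8 was lower in tumor than in tumor skin by a log2 fold change of -1.34 on probe 1 (2.54-fold, SE 0.244, 95% interval -1.90 to -0.78, limma adjusted p = 0.0149) and of -1.29 on probe 2 (2.44-fold, SE 0.192, adjusted p = 0.00763). In papilloma versus papilloma skin probe 2 was lower by -0.77 (SE 0.175, adjusted p = 0.0406), short of the fold limit, and probe 1 by -0.88 (SE 0.223, adjusted p = 0.0566). Over 20 alternative fits this difference on probe 2 ran from -1.56 to -0.18 and did not pass the adjusted p in 15 of them. Over both stages Tlr8 fell by 1.11 on probe 1 (log2, SE 0.165, adjusted p = 0.00359) and by 1.03 on probe 2 (log2, SE 0.13, adjusted p = 0.0018). The lesion effect of tumor minus that of papilloma was -0.46 on probe 1 (SE 0.331, adjusted p = 0.558) and -0.52 on probe 2 (95% interval -1.12 to 0.07, adjusted p = 0.396), so that a difference between the stages was not shown. Tumor and papilloma differed by -0.13 on probe 1 (95% interval -0.64 to 0.39) and by -0.11 on probe 2 (95% interval -0.51 to 0.30).

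Without the columns of papilloma skin 1 and tumor 1, Tlr8 probe 1 fell in tumor versus tumor skin by 1.68 (log2, limma adjusted p = 0.0228) and Tlr8 probe 2 by 1.55 (adjusted p = 0.0202). Without tumor 2 the differences were -1.01 (adjusted p = 0.0892) and -1.03 (adjusted p = 0.0517), and neither probe was called. Without tumor skin 2, probe 1 was at -1.24 (adjusted p = 0.0616) and was not called, whereas probe 2 fell by 1.31 (adjusted p = 0.0337). In lesions versus skin, Tlr8 probe 1 was at -0.94 and Tlr8 probe 2 at -0.90 without tumor 2, and Tlr8 probe 2 at -0.97 without papilloma skin 2, each past the adjusted p and short of the fold limit. Without tumor 2 the 1 receptor called over both stages was therefore Tlr6, at 1.00 (adjusted p = 0.0152), and without papilloma skin 2 it was Tlr8 probe 1. Within slide 1, which held 1 array of each group, papilloma minus papilloma skin was -0.61 on probe 1 and -0.70 on probe 2 in the value table, and tumor minus tumor skin was -0.90 and -1.05. In the quantile normalized scanner files the papilloma difference had the other direction, at 2.28 and 0.22, and the tumor difference was -3.53 and -1.19. Within slide 2, papilloma minus papilloma skin was -1.23 on probe 1 and -0.91 on probe 2 in the value table, and -1.34 and -1.05 in the scanner files. No other slide held a lesion with the skin of its own stage.

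Background for these counts was the share of all 55681 probes past the same limits. Calls needed a p of 0.05 or less after Benjamini-Hochberg adjustment, a mean log2 level no lower than 6 and a log2 fold change of 1 or more in either direction. By these limits 4.21% of all probes were called in tumor versus tumor skin, 1.51% as lower and 2.71% as higher, against 2 of the 14 receptor probes, both Tlr8 and both lower. In lesions versus skin the same 2 probes were called, where 3.62% of all probes were, 1.33% as lower and 2.29% as higher. No receptor probe was called in papilloma versus papilloma skin (3.18% of all, 2.18% as higher), tumor against papilloma (0.447%), the skin of tumor against that of papilloma (0.26%) or for the difference between the lesion effects (0.0269%). At an unadjusted p under 0.05, limma gave 5, 3, 2 and 0 of the 14 receptor probes in these 4 comparisons, where 20.7%, 14.4%, 22.7% and 14.7% of all probes were under that limit. The smallest adjusted p was 0.0406 for papilloma versus papilloma skin, 0.162 for tumor against papilloma, 0.0687 between the skin groups and 0.396 for the difference.

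By the adjusted p alone, 1 receptor probe was lower in papilloma versus papilloma skin (2.19% of all probes were). In tumor versus tumor skin 3 of the 14 passed, against 9.74% of all, and in lesions versus skin 4 of the 14, against 14.8% of all. Groups did not overlap for 3 higher and 2 lower receptor probes in papilloma versus papilloma skin (37.6% of all probes in either direction) and for 3 higher and 7 lower in tumor versus tumor skin (52.1%). The same counts were 3 and 1 for tumor against papilloma (36.2%), 4 and 2 between the skin groups (48.9%) and 2 and 2 in lesions versus skin (12.1%). The median log2 fold change over the 14 probes was -0.11 for papilloma against its skin, -0.09 for tumor against its skin and 0.31 in tumor skin versus papilloma skin, against -0.01, -0.02 and -0.01 over all probes. The comparisons of a stage share arrays with that over both stages and are not independent of it.

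**Figure D2:**
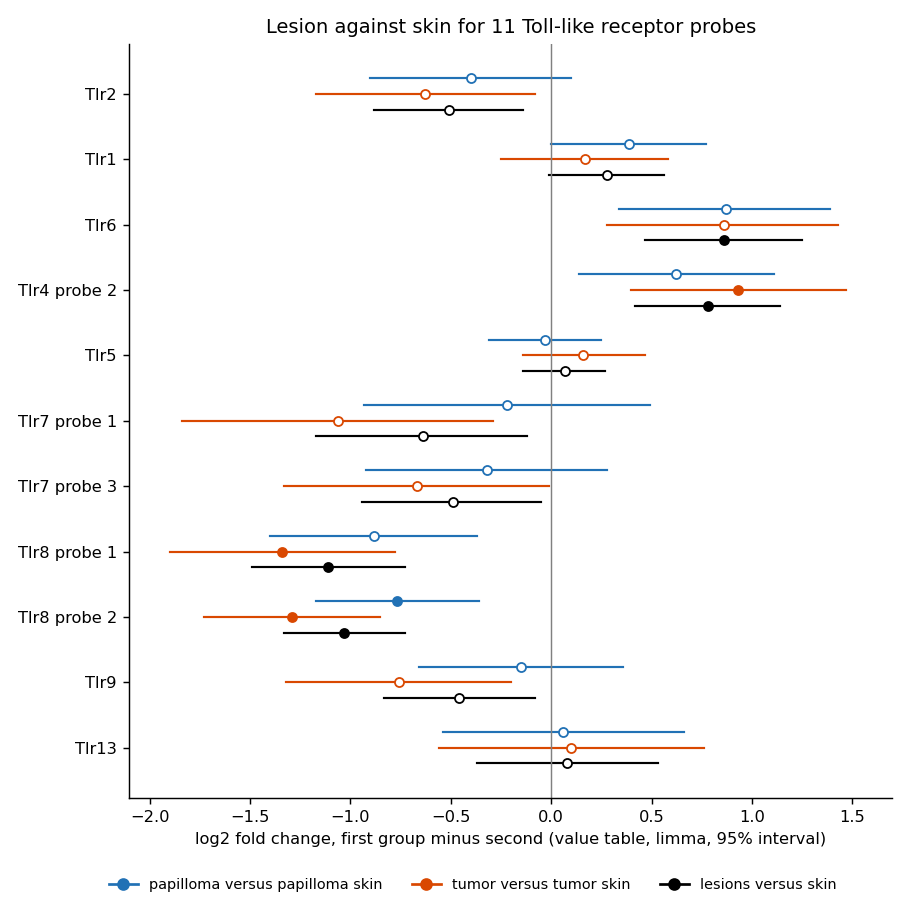
Log2 fold change (x axis, first group minus second) of the 11 receptor probes well above background on more than 3 arrays, in 3 comparisons from the value table. Lines are 95% intervals of limma and filled points have an adjusted p of at most 0.05, which were Tlr8, lower, and Tlr4 probe 2 and Tlr6, higher.

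Tlr7, the receptor for single-stranded RNA, was read by Tlr7 probe 1 (chrX:163742863-163742922, minus strand) and probe 3 (chrX:163743146-163743205, minus strand). On probe 1 the log2 levels were 8.90 and 8.92 in papilloma skin, 8.95, 8.19 and 8.93 in papilloma, 8.89 and 9.74 in tumor skin, and 8.45 and 8.04 in tumor. On probe 3 they were 8.17 and 7.81 in papilloma skin, 7.44, 7.44 and 8.14 in papilloma, 7.93 and 7.77 in tumor skin, and 7.45 and 6.91 in tumor. Both probes were lower on both tumor arrays than on both tumor skin arrays, while papilloma overlapped papilloma skin. The log2 fold change in tumor versus tumor skin was -1.06 on probe 1 (SE 0.339, 95% interval -1.84 to -0.29, limma adjusted p = 0.0866) and -0.67 on probe 3 (SE 0.287, adjusted p = 0.179). Tlr7 probe 2 (chrX:163747214-163747273, minus strand), annotated to another transcript, lay between 4.90 and 5.49 and gave no fold change for the reason given for Tlr4 probe 1.

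Tlr9, which recognizes unmethylated CpG DNA, had log2 levels of 10.78 and 11.32 in papilloma skin, 11.13, 10.90 and 10.66 in papilloma, 11.21 and 11.65 in tumor skin, and 10.62 and 10.72 in tumor (chr9:106128979-106129038, plus strand). The tumor arrays were below the tumor skin arrays and the papilloma arrays overlapped papilloma skin. The difference was -0.76 in tumor versus tumor skin (SE 0.243, limma adjusted p = 0.087) and -0.15 in papilloma versus papilloma skin (SE 0.222, adjusted p = 0.757). The effects of the stages differed by -0.61 (95% interval -1.36 to 0.15, adjusted p = 0.435).

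Tlr13, a sensor of bacterial ribosomal RNA found in mice, had log2 levels of 13.52 and 14.24 in papilloma skin, 13.76, 14.22 and 13.85 in papilloma, 14.56 and 14.16 in tumor skin, and 14.68 and 14.24 in tumor (chrX:103355773-103355832, plus strand). Lesion and skin overlapped at both stages, with differences of 0.06 (95% interval -0.54 to 0.66) for papilloma and 0.10 (95% interval -0.56 to 0.76) for tumor. Tumor lay above papilloma on both arrays, by 0.51 (SE 0.263, limma adjusted p = 0.412). Tlr3, the receptor for double-stranded RNA, gave values of 4.65 to 5.35 (chr8:46481729-46481788, minus strand) that were on no array well above background, and no fold change is given.

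The genes whose pattern over the 9 columns was most like that of Tlr8, among 19049 named probes with a mean level of at least 6, are a description of shared arrays and not a test. For probe 1 of Tlr8 they were Lst1, Cdc14a and Prr7 (Pearson's r of 0.991, 0.99 and 0.989), and for probe 2 they included Sirpa and Ssh3 (0.997 and 0.991). Their log2 fold changes in tumor versus tumor skin were -1.04, -0.65 and -1.71 for the first set and -0.79 and -1.10 for Sirpa and Ssh3.

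In the scanner files themselves, with log2 processed signals quantile normalized and no correction for slide, Tlr8 probe 1 was far lower on papilloma skin 1 and tumor 1 than in the table. Tlr8 probe 1 had 3.77 on papilloma skin 1 and 7.60 on papilloma skin 2, 7.36 and 8.00 on tumor skin, 6.05, 6.26 and 6.00 on papilloma, and 3.83 and 4.90 on tumor. Tlr8 probe 2 had 5.40 and 7.28 on papilloma skin, 7.40 and 7.66 on tumor skin, 5.62, 6.23 and 6.10 on papilloma, and 6.21 and 5.39 on tumor. Every lesion array was thus below every skin array apart from papilloma skin 1. After ComBat for slide, the tumor minus tumor skin difference was -3.75 on probe 1 (log2, limma adjusted p = 0.057) and -1.79 on probe 2 (adjusted p = 0.159), so that neither passed, while papilloma versus papilloma skin was 0.48 on probe 1 (adjusted p = 0.525) and -0.38 on probe 2 (adjusted p = 0.518). On the 6 arrays with the full spike-in slope, the difference was -1.80 for papilloma and -3.71 for tumor on probe 1, and -1.56 and -2.72 on probe 2, with adjusted p of 0.136 to 0.271, where the lone arrays of 3 groups were assumed to vary like papilloma.

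Tlr1, Tlr4 probe 2 and Tlr6 behaved differently between the sources. After ComBat on the scanner files, papilloma versus papilloma skin was 1.62 for Tlr4 probe 2 (limma adjusted p = 0.0376), 1.31 for Tlr6 (adjusted p = 0.0332) and 1.46 for Tlr1 (adjusted p = 0.042), and these were the 3 of 14 receptor probes called, against 7.19% of all probes. In tumor against its skin the same fit gave -0.15 for Tlr1 (adjusted p = 0.873), 0.03 for Tlr4 probe 2 (adjusted p = 0.974) and 0.08 for Tlr6 (adjusted p = 0.913), and with scaling to the 75th percentile Tlr6 was at -0.25 (adjusted p = 0.852). On the 6 arrays the differences for Tlr4 probe 2 were 0.48 for papilloma and 0.83 for tumor, for Tlr6 they were 0.65 and 0.62, and for Tlr1 0.49 and -0.49, none of which passed.

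**Figure D3:**
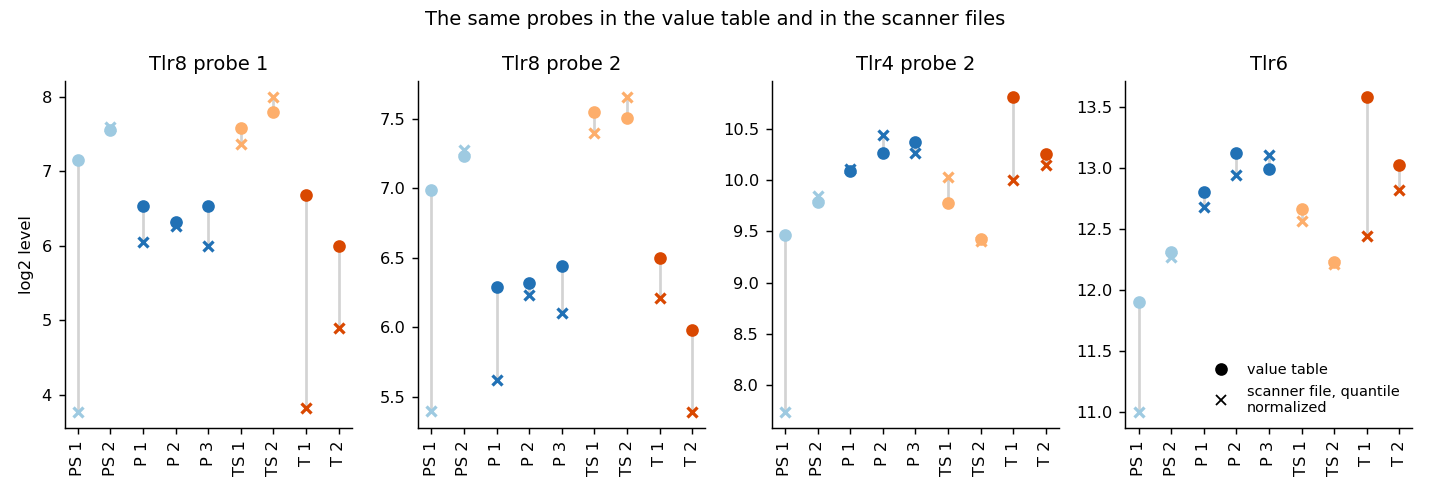
Log2 level on each array (x axis, groups as PS, P, TS and T with the array number) of 4 probes in the value table (circles) and in the quantile normalized scanner files (crosses), joined by grey lines. Tlr8 probe 1 differed most between the sources on papilloma skin 1, at 7.15 in the table and 3.77 in the scanner file, and on tumor 1, at 6.68 and 3.83.

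**Figure D4:**
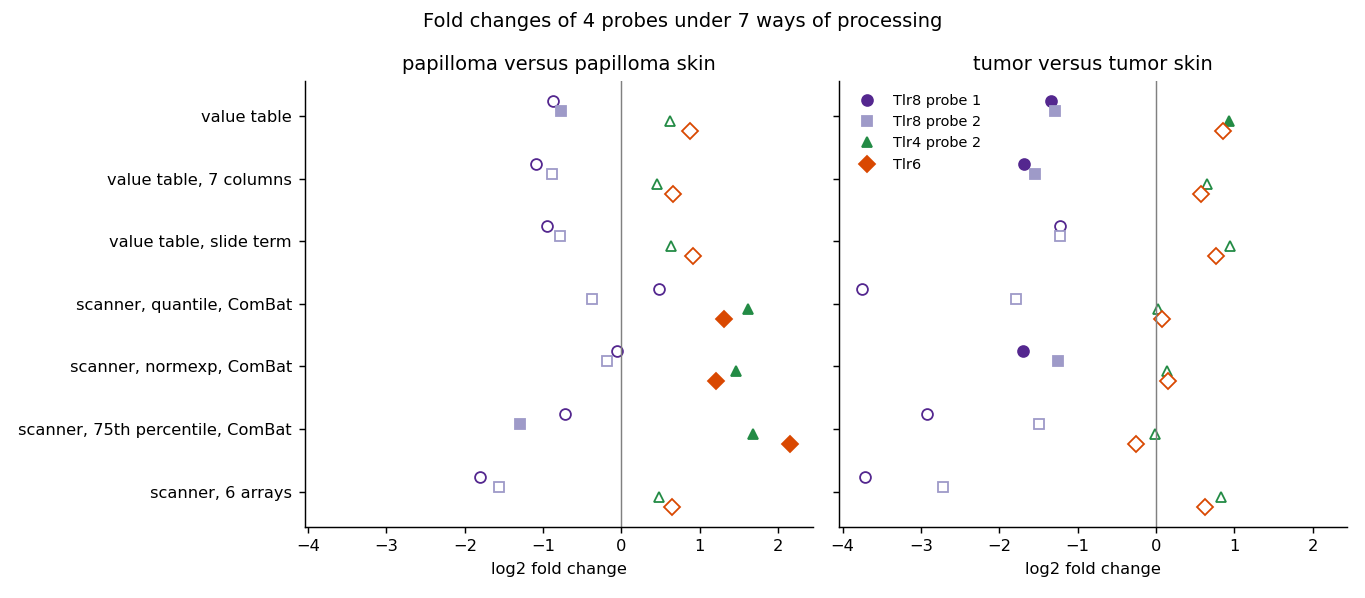
Log2 fold change (x axis) of Tlr8 probe 1, Tlr8 probe 2, Tlr4 probe 2 and Tlr6 under 7 ways of processing (y axis), with filled symbols at an adjusted p of at most 0.05. Tlr8 was lower in tumor than in tumor skin under each, from -3.75 to -1.22 on probe 1, whereas in papilloma versus papilloma skin probe 1 ran from -1.80 to 0.48.

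Markers of other leukocytes moved with the lesions in the same preparations. Over all probes, 3.18% were called in papilloma versus papilloma skin, 4.21% in tumor versus tumor skin and 3.62% in lesions versus skin. The same shares belong to the counts of each marker and pathway list below, unless another fit is named. Of 16 probes of a monocyte and macrophage list, 15 were well above background on all arrays of each group, and 3 were called lower in papilloma versus papilloma skin, 2 in tumor versus tumor skin and 4 in lesions versus skin. The calls in tumor were both of Emr1, those in papilloma Emr1 and Lyz2, and those over both stages Emr1, Lyz2 and Ccr2. The log2 of the list's summed level was 16.13 to 16.54 in skin and 15.61 to 15.89 in lesions. Its member Emr1, which encodes the surface antigen F4/80, fell by 2.56 (log2, limma adjusted p = 2.78e-05) in lesions versus skin on the brighter of its probes, and was picked after its value was seen. Among the others of the list, C1qa, a complement gene of macrophages, was higher by 0.75 (adjusted p = 0.014), and the pair of Cd68 probes differed by 0.41 (adjusted p = 0.0884) and 0.51 (adjusted p = 0.157). Of 11 eosinophil probes, 6 were called lower in each of these comparisons and 2, both of Siglec5, higher in tumor versus tumor skin. The list's summed level was 13.47 to 14.35 in skin and 12.16 to 13.30 in lesions. The eosinophil markers Epx, Prg3 and Prg2 were well above background on 3, 2 and 4 arrays. All others of the list were so on all 9 arrays. These were both probes of Siglec5 and the 6 called lower, namely Ccr3, Il5ra, Ear1, Ear2, Ear6 and Ear10. Of 15 neutrophil probes, 6 were called lower in each comparison, among them Camp and Ngp, and the summed level was 20.01 to 20.23 in skin and 19.64 to 19.86 in lesions. Of 25 keratinocyte probes, 4, 5 and 6 were called higher in the 3 comparisons and none lower, with a summed level of 13.70 to 14.65 in skin and 14.63 to 16.58 in lesions. Median log2 fold changes in papilloma and in tumor, against the skin of the stage, were also taken without papilloma skin 1 and tumor 1. For monocytes and macrophages they were -0.24 and -0.34, against -0.49 and -0.39 with all columns. For eosinophils they were -1.15 and -1.59, against -1.19 and -1.64. For neutrophils they were -1.37 and -0.79, against -1.08 and -0.66. From the scanner files after ComBat, 4 monocyte and macrophage probes were higher and 1 lower in papilloma, none was called in tumor, and 1 was higher and 3 lower over both stages. In the same order, 5, 3 and 6 eosinophil probes and 7, 5 and 7 neutrophil probes were called lower there, and none higher. Keratinocyte probes were called higher in 6, 0 and 6 and lower in none. The same fit called 7.19% of all probes in papilloma, 0.221% in tumor and 3.18% over both stages, against skin. These shares also belong to its counts for the pathway lists given below.

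The remaining marker lists are given in the same order as higher and lower. Of all probes 3.18%, 4.21% and 3.62% were called in either direction, and a single call in a list is not read as a shift of a cell type. Of 19 dendritic cell probes 1 and 0, 0 and 2, and 1 and 1 were called, of 9 B and plasma cell probes 0 and 1, 0 and 2, and 1 and 2, and of 11 T cell probes 0 and 0, 0 and 1, and 0 and 1. Endothelial probes were higher in 6, 2 and 5 of 10 and lower in none, of 11 fibroblast probes 1 and 0, 1 and 1, and 3 and 0 were called, and no mast cell probe was. With papilloma skin 1 and tumor 1 left out, medians in papilloma and in tumor were 2.04 and 1.40 for endothelial probes, against 1.65 and 0.99 with all columns. They were 0.55 and 1.01 for fibroblasts, against 0.14 and 0.36, and 0.88 and 1.91 for keratinocytes, against 0.63 and 0.86. For mast cells they were 0.35 and 0.62, against 0.36 and 0.08, and for dendritic cells 0.37 and -0.77, against 0.31 and -0.69. T cell medians were -0.07 and -0.15, against -0.15 and -0.21. Those of B and plasma cells were -0.28 and -0.59, against -0.27 and -0.54. Monocytes, eosinophils and dendritic cells can express receptors of this family, and the part of these cells in the Tlr8, Tlr4 and Tlr6 differences was not tested.

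Proteins that fold, carry or assist the receptors were seldom called. Of 15 probes of 12 genes, none was called in papilloma versus papilloma skin or tumor versus tumor skin and 1 was called in lesions versus skin, that of Ly86, also known as MD-1, the partner of the receptor homolog Cd180. Ly86 was lower by -2.07 (SE 0.526, limma adjusted p = 0.0341). Its difference was -1.91 without the columns of papilloma skin 1 and tumor 1. From the scanner files after ComBat it was -1.11 (limma adjusted p = 0.228), and none of the 15 was called there. Unc93b1, which carries the nucleic acid receptors to endosomes, was at 12.19 and 12.24 in papilloma skin, 11.73, 11.77 and 11.97 in papilloma, 12.67 and 12.61 in tumor skin, and 11.82 and 11.72 in tumor. All its lesion values were below all its skin values, and the difference was -0.87 (SE 0.143, adjusted p = 0.0103) in tumor against tumor skin and -0.39 (SE 0.131, adjusted p = 0.138) in papilloma versus papilloma skin, under the fold limit. Cd14, the lipopolysaccharide co-receptor, differed between lesions and skin by 0.27 (SE 0.116, adjusted p = 0.158) and Ly96 by -0.02 (SE 0.165, adjusted p = 0.947).

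Among adaptors and kinases, 27 probes of 19 genes, 2 were called in papilloma versus papilloma skin, 4 in tumor versus tumor skin and 3 in lesions versus skin, each of them higher. Ikbke, which phosphorylates interferon regulatory factors, rose in tumor against tumor skin by 2.25 (SE 0.241, limma adjusted p = 0.00249) and in papilloma against papilloma skin by 1.06 (SE 0.22, adjusted p = 0.0286). Irak2 rose on 1 of its probes by 1.07 (adjusted p = 0.0233) and 1.01 (adjusted p = 0.0239) in the same order, and Tbk1 rose in tumor versus tumor skin by 1.51 (adjusted p = 0.00887) and Traf6 on 1 of its 3 probes by 1.00 (adjusted p = 0.014). Myd88 itself had log2 levels of 12.63 and 13.28 in papilloma skin, 12.56, 12.88 and 12.66 in papilloma, 13.85 and 13.60 in tumor skin, and 12.97 and 12.53 in tumor, and was lower by -0.98 (SE 0.251, adjusted p = 0.0466) in tumor versus tumor skin, just under the fold limit. Without the columns of papilloma skin 1 and tumor 1 the counts of this list were 0 in papilloma versus papilloma skin, 1 higher and 1 lower in tumor versus tumor skin and 2 in lesions versus skin, and from the scanner files after ComBat 6, 1 and 1 probes were higher and none lower. Ikbke stayed called in tumor without the columns (2.25, adjusted p = 0.0269), and its papilloma difference (1.31, adjusted p = 0.0786) and those of Irak2, Tbk1 and Traf6 did not.

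Inhibitors of receptor signaling moved both ways. Of 16 probes of 11 genes, 2 were called higher and 5 lower in papilloma versus papilloma skin, 2 higher and 1 lower in tumor versus tumor skin, and 1 higher and 4 lower in lesions versus skin. The probes that fell in papilloma were those of Cyld, a deubiquitinase that acts on Traf6, and of Il1rl1, the interleukin-33 receptor, with -1.55 (limma adjusted p = 0.00723) for the brighter probe of Cyld and -2.17 (adjusted p = 0.000758) for the brightest of Il1rl1. Socs1 rose by 1.12 (adjusted p = 0.0153) in papilloma and by 1.55 (adjusted p = 0.00618) in tumor against the skin of the stage, Pik3ap1 rose by 1.25 (adjusted p = 0.0121) in papilloma and Tollip on 1 of its 3 probes by 1.08 (adjusted p = 0.00526) in tumor. Without the 2 columns named above, 0 were higher and 3 lower in papilloma versus papilloma skin and 1 was higher and 2 lower in tumor versus tumor skin. Both probes of Cyld, the brightest of Il1rl1 and that of Tollip stayed called there, whereas Socs1 and Pik3ap1 did not. From the scanner files after ComBat, 4 were higher and 1 lower in papilloma and 0 higher and 1 lower in tumor against the skin of the stage. There Il1rl1 changed direction in papilloma, to 0.22 on its brightest probe (limma adjusted p = 0.842) and to 0.45 on each other probe. The brighter probe of Cyld stayed lower in papilloma, at -1.40 (adjusted p = 0.0232), and the other was at -0.55 (adjusted p = 0.408). Socs1 and Pik3ap1 stayed called in papilloma there. That fit called 7.19% and 0.221% of all probes in the same order.

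Among cytokines and enzymes that these receptors are known to induce, some rose in lesions and none fell. Of 17 probes of 16 genes, 5 were called in papilloma versus papilloma skin, 8 in tumor versus tumor skin and 9 in lesions versus skin, each of these higher, with medians of 0.58, 1.40 and 1.01 against -0.01, -0.02 and -0.02 over all probes. Il1a, which encodes interleukin-1 alpha, rose by 3.21 in papilloma (SE 0.29, limma adjusted p = 0.000856) and by 3.34 in tumor (SE 0.318, adjusted p = 0.00163), and Nos2, the inducible nitric oxide synthase, by 2.89 (adjusted p = 0.000271) and 2.81 (adjusted p = 0.000813). The chemokine gene Ccl3 rose by 1.87 (adjusted p = 0.000311) and 2.30 (adjusted p = 0.000482) and Ccl4 by 1.88 (adjusted p = 0.000816) in papilloma, while Cxcl10 rose on 1 of its 2 probes by 2.04 (adjusted p = 0.00715) in tumor. Il6 was at 9.33 to 10.17 in papilloma, above the 7.97 and 8.38 of papilloma skin, and at 7.20 and 8.05 in tumor, above the 6.15 and 6.23 of tumor skin. It rose at both stages, by 1.57 (adjusted p = 0.0221) and 1.44 (adjusted p = 0.0352), and was lower in tumor than in papilloma by -2.12 (SE 0.306, adjusted p = 0.0282), whereas Nos2 was higher in tumor than in papilloma by 1.79 (SE 0.198, adjusted p = 0.0113). Without the columns of papilloma skin 1 and tumor 1 the medians in the 3 lesion comparisons were 0.52, 1.38 and 1.07. From the scanner files after ComBat 8, 1 and 7 probes were called higher. Of the genes named here, Il6 in papilloma (1.78, adjusted p = 0.0616) was not called without the columns, and the other lesion calls were kept. The fit from the scanner files called 7.19%, 0.221% and 3.18% of all probes in the 3 lesion comparisons. Which signal induced these cytokine and enzyme genes was not measured.

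**Figure D5:**
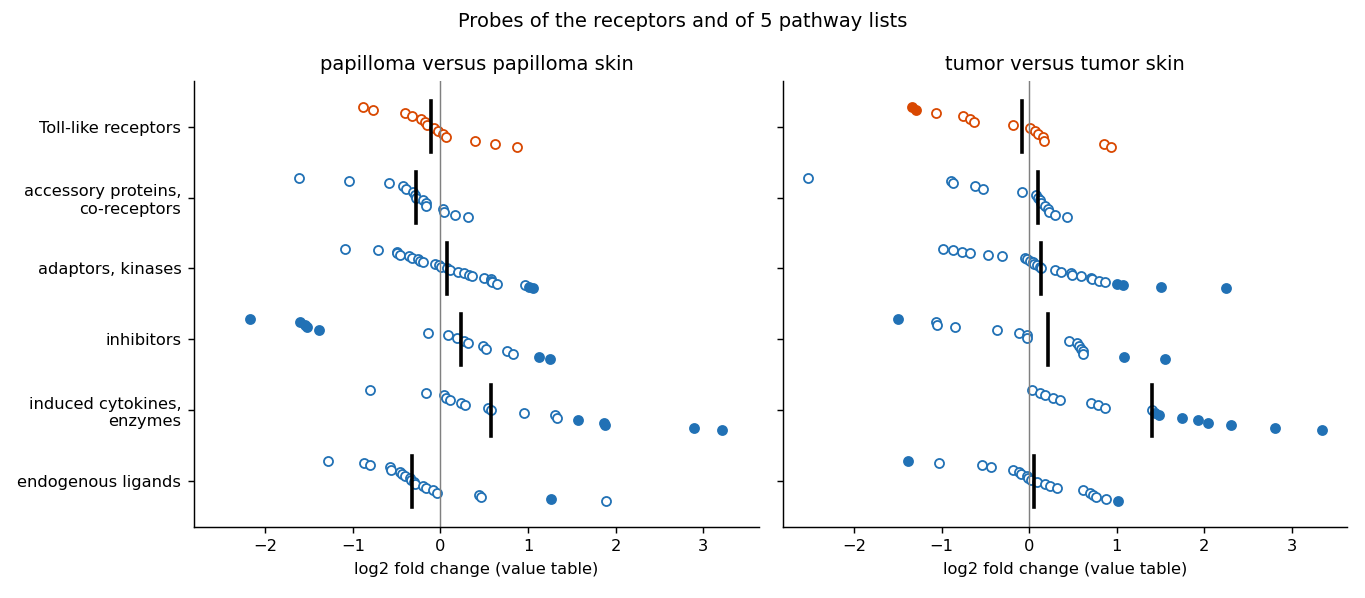
Log2 fold change (x axis, value table) of the 14 receptor probes (orange) and of the probes of 5 pathway lists (blue) in each lesion against the skin of its stage, with called probes filled and medians as black bars. The list of induced cytokines and enzymes had medians of 0.58 and 1.40 and the receptors -0.11 and -0.09.

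Endogenous ligands of the receptors, 20 probes of 10 genes, had 1 probe called higher in papilloma versus papilloma skin, that of Hspa1a, a heat shock protein, which rose by 1.26 (SE 0.186, limma adjusted p = 0.00704). Against tumor skin, Hspa1a in tumor rose by 1.01 (adjusted p = 0.0218) and Dcn, which encodes the matrix proteoglycan decorin, fell by 1.38 (log2, adjusted p = 0.0452). Without the 2 columns, no probe of this list was called at either stage. The other mouse receptors of the family, Tlr11 and Tlr12, were not called in any comparison. Tlr12, well above background on 7 of the 9 arrays, was at 5.16 and 5.66 in papilloma skin and at 6.01 to 6.81 in papilloma. It was higher there by 1.01 (SE 0.24, limma adjusted p = 0.0471), with a mean level under the limit. Tlr11, well above background on 4 of the 9 arrays, lay between 4.69 and 7.10, and no fold change is given for it.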

How the data were processed

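Gene expression was measured on 9 one-color Agilent arrays (design Agilent-028005). The authors deposited scanner output with the processed intensity of each spot (Feature Extraction 10.7.3.1) and a table of log2 values for 55681 probes. Their methods name quantile normalization in limma and ComBat for chips, and which of these steps the table holds is not given in the sources used here. Probe coordinates were those of mm9 in the scanner files. The log2 table was fitted in limma 3.58.1 (R 4.3.3) with the group as the only term, and p-values were adjusted by Benjamini-Hochberg over all probes. All groups shared 1 estimate of the spread with 5 residual degrees of freedom. If the deposited values already hold a correction for slide, this estimate leaves out differences between slides and the p-values may be too small. With slide as a term on the same values, 0.375% of all probes were called in tumor versus tumor skin, against 4.21% without it. Calls needed an adjusted p of 0.05 or less, a mean log2 level no lower than 6 and a log2 fold change of 1 or more in either direction. The scripts were tested on simulated data.

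Every member probe is named, called or not. Of each pathway list, at most 4 called genes with the largest fold change per comparison are named, with Cd14, Ly96, Unc93b1, Myd88, Tlr11 and Tlr12 whatever their values and the 3 genes nearest to each Tlr8 probe. The lesion differences of Il6 and the markers Emr1, Camp, Ngp, Epx, Prg3 and Siglec5 were chosen after their values were seen. The members, the pathway lists and the marker lists were chosen with earlier results of these data known. Alternatives started from the scanner intensity with quantile normalization, scaling to the 75th percentile, or normexp (offset 50), with ComBat in an own implementation, slide as a term or no correction. Others left out arrays, used the replicate number as a block, or changed filters. Deviations of samples with the same replicate number had correlations of -0.959 to 0.534. These cannot decide whether the numbers pair the samples. All arrays numbered 1 lay on slide 1, and a correction for slide would remove a shift that they share. The number of arrays limits the precision. One gene that the rule for likeness to Tlr8 names is not reported here. Promoters came from RefSeq (GRCm38.p6), and figures were drawn with matplotlib 3.10.9.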

Additional observations from a re-analysis of the deposited data

How the results depend on the processing

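The counts of called receptor probes depended on the source of the values. In tumor versus tumor skin the count of 2 became 0 from the scanner files with quantile normalization (with ComBat, with a slide term, or without slide correction), with scaling to the 75th percentile, on the 6 arrays with the full spike-in slope, with a slide term on the value table, and with the replicate block. The share of all probes called in that comparison was 0.221% with quantile normalization and ComBat and 0.0671% with the 75th percentile. It was 0.375% with the slide term on the value table and 1.32% with the replicate block. In lesions versus skin it was 3.18% with quantile normalization and ComBat and 2.73% with normexp. With the median over the probes of a gene the receptor count in tumor versus tumor skin was 1 of 10 genes, since Tlr8 then counts once. Of all genes 4.36% were called there. With single arrays left out, the difference ran from -1.68 to -1.01 on Tlr8 probe 1 and from -1.55 to -1.03 on probe 2. Leaving out 1 array of a pair left 1 in its group, and counts of these fits are not given here. In lesions versus skin the count of 2 became 0 under the same 3 forms of quantile normalization and with normexp. It became 1 gene with the median over probes (3.93% of all genes) and 4 by the adjusted p alone (14.8% of all probes). With single arrays left out, the difference there ran from -1.28 to -0.94 on Tlr8 probe 1 and from -1.16 to -0.90 on probe 2. In papilloma versus papilloma skin the count of 0 became 3 with quantile normalization and ComBat (7.19% of all probes), 4 with the 75th percentile (11.5%), 3 with normexp (7.76%) and 1 by the adjusted p alone (6.35%). The 3 were Tlr1, Tlr4 probe 2 and Tlr6, and the 4 these and Tlr8 probe 2. Quantile normalization without ComBat and the 6 arrays called 0% of all probes in each lesion comparison. Scaling to the 75th percentile put the median of all probes at -0.37 in papilloma versus papilloma skin. The cause was not tested. On the value table without papilloma skin 1 and tumor 1, the Tlr8 probes were at -1.68 and -1.55 in tumor versus tumor skin.

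Tlr4 probe 2 changed direction in tumor versus tumor skin, to -0.05 with quantile normalization and a slide term and to -0.01 with the 75th percentile, and Tlr6, which did not pass there, to -0.25 with the latter. Tlr8 probe 1 ranged from -3.82 to -1.01 and Tlr8 probe 2 from -2.72 to -1.03 in that comparison, lower under each of the 20 alternatives. With the replicate block their adjusted p was 0.0848 and 0.0603, and in lesions versus skin both stayed called. Tlr3, Tlr4 probe 1, Tlr5 and Tlr7 probe 2 were limited by signal near background.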
